A study of Homo sapiens with 8 samples.

Results

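The cytosolic chaperonin CCT and the mitochondrial chaperonin pair HSP60 and HSP10 were examined at the RNA level in D283-OMO medulloblastoma cells. The 10 genes were taken by symbol: TCP1, CCT2, CCT3, CCT4, CCT5, CCT6A, CCT7 and CCT8, which encode the subunits of CCT (TCP1 encodes the alpha subunit), HSPD1, which encodes HSP60, and HSPE1, which encodes HSP10. Each symbol was found by its Ensembl identifier, and the 10 genes are 10 of the 60668 rows of each count file. All 10 exceeded 1 CPM (counts scaled to library size) in all 8 libraries and were among the 15222 genes tested, so none was lost to the filter on low counts.

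D283-OMO is the D283 MED line transduced with a lentivirus that carries FLAG-tagged OMOMYC, a dominant-negative form of MYC, under a doxycycline (DOX)-inducible promoter, and selected with hygromycin. Both groups carry the transgene: the untreated group (4 replicates) received no DOX, and the DOX group (4 replicates) received 0.25 µg/mL for 72 h. PolyA+ RNA was sequenced in pairs from stranded libraries, and the study describes the replicates as independent biological ones. Whether D283-OMO is a pool or 1 clone is not given in the sources used here. No library of DOX-treated cells without the transgene was analysed here, so DOX itself and OMOMYC cannot be told apart.

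Chaperonins are large barrels in which an unfolded protein is enclosed and folds at the expense of ATP. CCT is built of a pair of rings, each holding every subunit once, and is known for folding actin and tubulin, with prefoldin delivering chains to it and phosducin-like proteins assisting it. In the mitochondrial matrix, HSP60 forms the barrel and HSP10 its lid, and both act on proteins that enter through the TOM and TIM complexes and pass by the mitochondrial HSP70. Genes of protein folding are among the classes described as responding to MYC, whose preferred binding sequence is the E-box.

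The HSPD1 and HSPE1 genes stand back to back on chromosome 2. Shown are the HSPE1 window, which overlaps that of the HSPD1 upstream start, and the window of the HSPD1 downstream start. The sequences are those of RefSeq on GRCh38.p14, from 250 bases before to 50 bases after an annotated start, on the strand of the gene named. Capitals mark the E-box CACGTG in the HSPE1 window. In the window of the HSPD1 downstream start they mark 3 overlapping matches to the core of a heat shock element (TTCNNGAA or GAANNTTC). This element is the sequence bound by heat shock factors.
HSPE1, chr2:197500129-197500428, plus strand: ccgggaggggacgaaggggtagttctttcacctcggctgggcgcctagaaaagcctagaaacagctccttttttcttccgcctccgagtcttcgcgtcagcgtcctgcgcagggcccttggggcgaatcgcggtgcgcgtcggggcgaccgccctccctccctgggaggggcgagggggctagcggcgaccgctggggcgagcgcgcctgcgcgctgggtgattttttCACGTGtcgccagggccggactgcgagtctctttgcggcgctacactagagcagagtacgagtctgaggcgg
HSPD1, downstream start, chr2:197499791-197500090, minus strand: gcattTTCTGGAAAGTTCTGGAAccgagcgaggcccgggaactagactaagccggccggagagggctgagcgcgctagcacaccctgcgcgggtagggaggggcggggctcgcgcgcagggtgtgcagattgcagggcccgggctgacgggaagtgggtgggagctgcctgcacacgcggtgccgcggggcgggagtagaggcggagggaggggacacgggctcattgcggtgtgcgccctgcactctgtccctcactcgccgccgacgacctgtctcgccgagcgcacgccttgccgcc

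The E-box lay 22 bases upstream of the HSPE1 start. The same 6 bases lay 88 bases upstream of the HSPD1 upstream start, whose window is not printed. That start lies 105 bp from the HSPE1 start on the opposite strand. The windows of these 2 starts overlapped by 204 bp, so they held 1 site and not 2. Windows were given for 9 of the 10 genes (12 windows, since CCT2, CCT4 and HSPD1 have 2 starts each), with none for CCT6A. The windows of the 7 CCT genes held no CACGTG on either strand, and a heat shock element core was found in those of TCP1, CCT2 and CCT4. Of all 35116 windows of the same length, 7.26% held CACGTG and 13.5% held either form of the heat shock element core. Counted by gene, 8.77% of 27305 genes had a window with CACGTG and 16.2% had 1 with either core. RefSeq starts can lie inside the longest gene model, so a start used in these cells may fall outside a window, and a match is a string of letters and not a measured binding site.

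**Figure D1:**
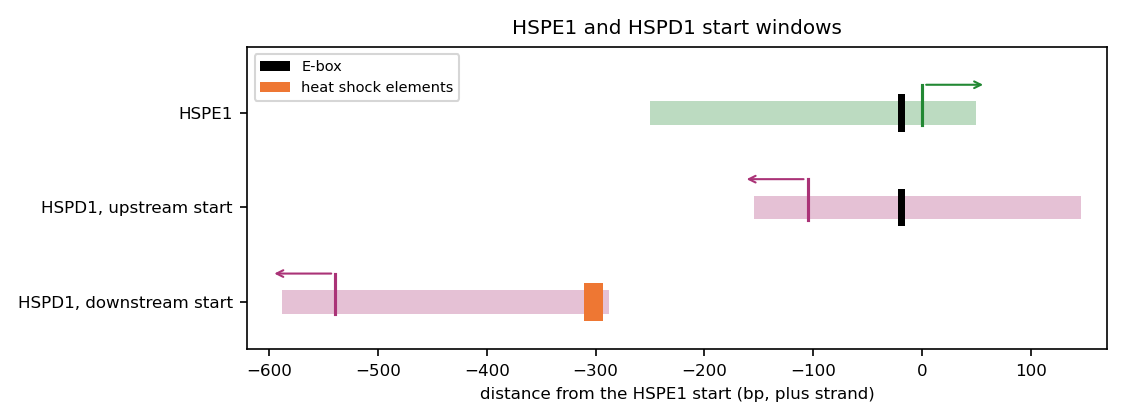
The 3 RefSeq start windows of HSPE1 and HSPD1 are drawn as bars against the distance from the HSPE1 start in bp, with arrows for the direction of transcription. The E-box (black) lies in the stretch shared by the HSPE1 window and that of the HSPD1 upstream start, and the heat shock element cores (orange) lie in the window of the HSPD1 downstream start.

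Total counts were 46592947 to 54020506 in the untreated libraries and 38390696 to 49249167 in the DOX libraries, and the 10 genes had between 3394 and 73977 counts in a library. Values below are CPM scaled by edgeR's TMM factors, which were 0.938 to 0.972 in untreated and 1.04 to 1.05 in DOX libraries. A gene was called where the quasi-likelihood test of edgeR gave a Benjamini-Hochberg adjusted p under 0.05 over the 15222 genes, and log2FC is DOX against untreated. Of all genes tested, 76.6% were called, 38.1% lower and 38.5% higher, and their median log2FC was 0.01, which moved to 0.14 with library size alone in place of TMM. These are bulk libraries, in which fewer cells of a type and less RNA per cell cannot be told apart. CPM values are relative to the other genes of a library, so a change in total RNA per cell cannot be seen in them. Of 7 genes listed for medulloblastoma, not all of them particular to group 3, OTX2 fell from 1049 ± 17.4 to 509.7 ± 1.79 CPM (SD, n = 4). CRX and NRL fell with log2FC values of -2.59 and -3.55. MYC RNA was called higher, from 939 ± 75.6 to 1123 ± 56.8 CPM (any reads of the transgene would count as MYC). Its log2FC was 0.26 (SE 0.06, edgeR adjusted p = 0.00237), and its groups overlapped. At the protein level, the study reports a strong decrease of MYC after DOX. EOMES, BARHL1 and LMX1A were too low to test. The summed level of 4 leukocyte markers stayed under 0.685 CPM in every library, that of 3 endothelial markers between 2.59 and 3.67 CPM, and that of 5 fibroblast markers, nearly all COL1A1, between 21.2 and 25.2 CPM. Within the fibroblast list, DCN went from 0.601 ± 0.158 to 0.0117 ± 0.0136 CPM, COL1A2 from 0.223 ± 0.0967 to 0.0110 ± 0.0220 CPM and COL3A1 from 0.0051 ± 0.0102 to 0.335 ± 0.012 CPM, each with separate groups and too low to test. Within the endothelial list, CDH5 was at 0 in the untreated group and at 1.52 to 2.07 CPM in DOX libraries, PECAM1 had at most 2 counts in a library, VWF went from 3.26 ± 0.332 to 1.24 ± 0.184 CPM, and the part of these and of the medulloblastoma markers in the results below was not tested. COL1A1 was not called, but was called higher without DOX replicate 2 (edgeR adjusted p = 0.00871) and with library size alone (adjusted p = 0.00539).

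All 10 chaperonin genes were lower with DOX. Each was called by edgeR's quasi-likelihood test, against 38.1% of all genes tested called lower, and in each gene the highest DOX library lay below the lowest untreated one, a separation downwards that 35.4% of all genes tested showed. The median log2FC of the 10 genes was -0.49 and that of the 8 CCT genes was also -0.49, beside 0.01 for all genes tested and -0.15 for the 2036 genes with a mean of at least 100 CPM, of which 50.9% were called lower. Falls of more than 0.5 on the log2 scale were seen in 4 of the 10 genes (CCT3, CCT4, CCT7 and HSPD1), beside 21.8% of all genes tested. None of the 10 passed an FDR under 0.001 with an absolute log2FC above 2, the thresholds in the study's methods, which 7.12% of genes tested passed, nor the FDR under 0.01 that its results text gives with the same log2FC limit, which 7.13% passed. With edgeR's quasi-likelihood test 9 of the 10 had an FDR under 0.001 and all 10 an unadjusted p under 0.05. The shares of all genes tested at these cuts are not given here, and 76.6% were called in either direction at an adjusted p under 0.05. The Wald test of DESeq2 also put 0 of the 10 past both the FDR limit of 0.001 and the log2FC limit.

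**Figure D2:**
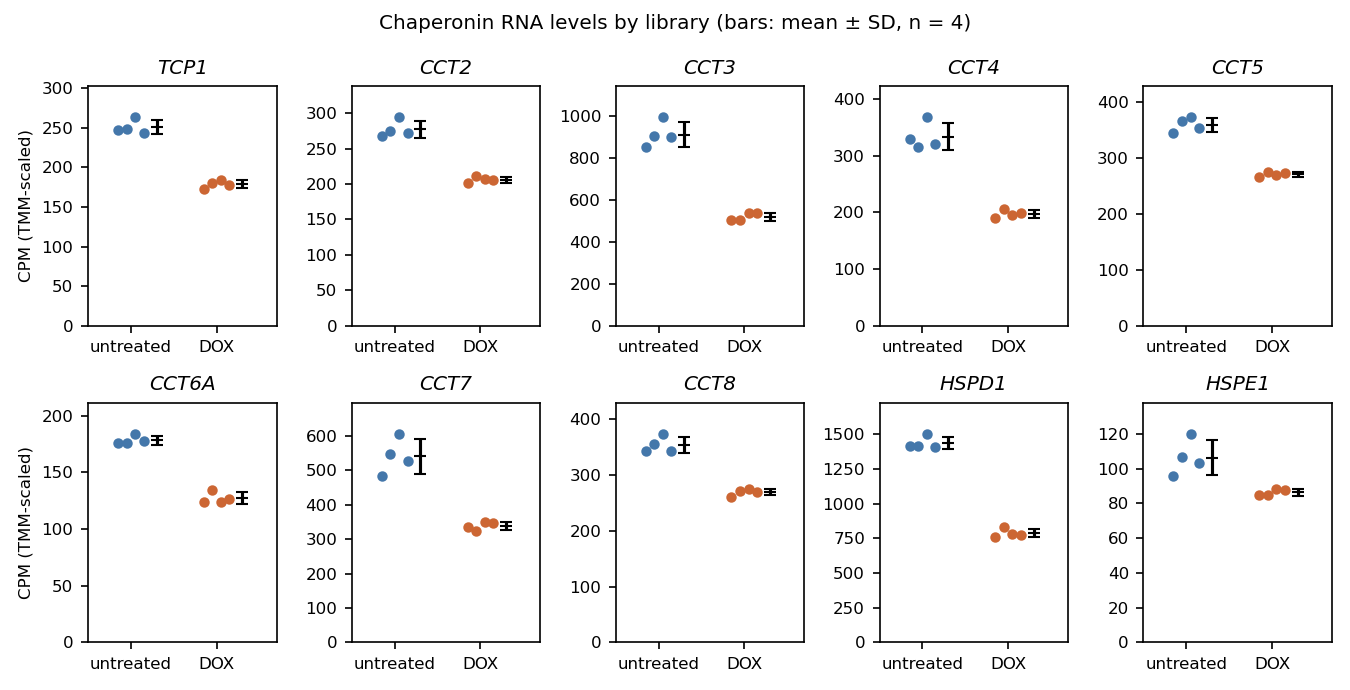
TMM-scaled CPM of each of the 10 chaperonin genes in the 4 untreated (blue) and 4 DOX (orange) libraries, with black bars for the mean ± SD and each axis starting at 0. The groups do not overlap for any of the genes, and the narrowest gap is that of HSPE1.

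HSPD1 had the highest level of the 10 genes, in CPM and per kb of exon, and fell furthest. The HSP60 gene stood at 1414, 1417, 1504 and 1410.4 CPM in untreated replicates 1 to 4 and at 760.2, 831, 784 and 778 CPM in DOX replicates 1 to 4. The groups lay 579 CPM apart, while the replicates of a group spread over less than 100 CPM. HSPD1 thus fell by 45.1%, from 1436 ± 45.1 to 788 ± 30.2 CPM (SD, n = 4), and its log2FC was -0.87 (SE 0.04, edgeR adjusted p = 6.59e-09). It ranked 67th by mean CPM in untreated cells among the genes tested.

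HSPE1, the gene of the HSP10 lid, changed least. It gave 95.7, 107, 120.0 and 103 CPM in untreated replicates 1 to 4 and 85.0, 84.6, 88.1 and 87.8 CPM in DOX replicates 1 to 4. The groups were separate by only 7.55 CPM, and the untreated libraries spread more widely than the DOX libraries. The mean was 106 ± 10.2 CPM in untreated and 86.4 ± 1.86 CPM in DOX libraries (SD, n = 4), with a log2FC of -0.30 (SE 0.06, edgeR adjusted p = 0.00108), or a fall of 18.8%. With library size alone in place of TMM the log2FC of HSPE1 was -0.17, still called with an edgeR adjusted p of 0.017.

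The balance within the HSP60 and HSP10 pair therefore shifted. Untreated replicates 1 to 4 held 14.8, 13.3, 12.53 and 13.7 HSPD1 counts per HSPE1 count, and DOX replicates 1 to 4 held 8.95, 9.83, 8.90 and 8.86. Every DOX library was below every untreated library in this ratio, which does not depend on how the libraries are scaled. The mean ratio was 13.6 ± 0.937 in untreated and 9.13 ± 0.464 in DOX libraries (SD, n = 4), a log2 difference of -0.57 (SE 0.06, two-sided exact permutation p = 0.0286, the smallest that 4 against 4 libraries allow). Per kb of annotated exon, HSPD1 stood at 338 CPM and HSPE1 at 53.8 CPM in untreated cells, and at 186 and 43.7 CPM with DOX. Counts of HSPE1 were not whole numbers in any of the 8 libraries, since reads that match several genes are divided, and HSPE1 shares exon sequence with the read-through gene HSPE1-MOB4. The gene model of HSPE1 also lies within that of HSPD1 on the opposite strand. Whether counting used the strand is not given, so reads of any overlapping exons may not be told apart in this ratio.

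**Figure D3:**
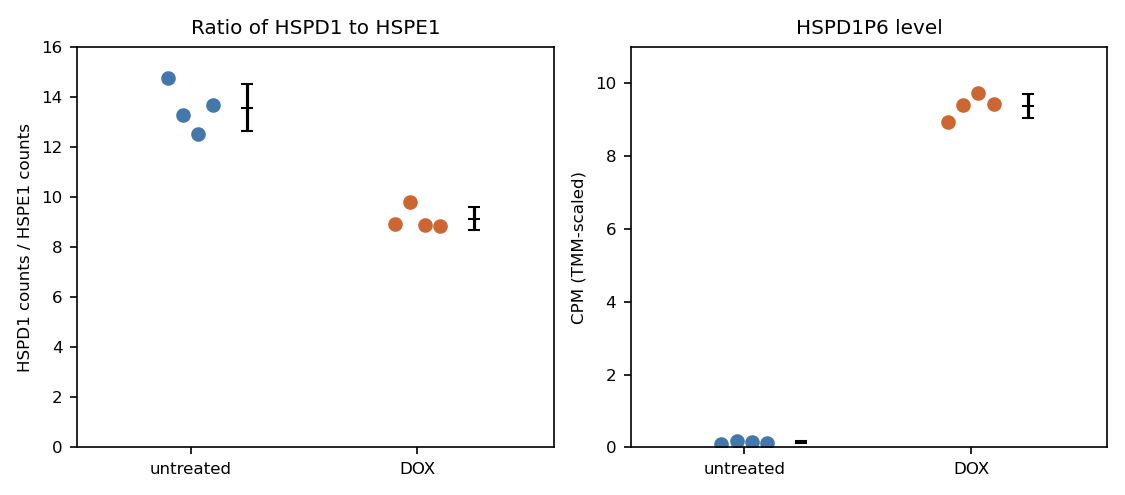
Left, HSPD1 counts per HSPE1 count, and right, TMM-scaled CPM of the pseudogene HSPD1P6, in the 4 untreated (blue) and 4 DOX (orange) libraries, with black bars for the mean ± SD. The ratio fell from between 12.53 and 14.8 down to between 8.86 and 9.83, while HSPD1P6 went from under 0.2 CPM to between 8.93 and 9.74 CPM.

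Among the CCT subunits, the fall was deepest in CCT3, CCT4 and CCT7. CCT3, the gamma subunit, gave 849.5, 903, 993 and 897 CPM in untreated replicates 1 to 4 and 502, 506, 538 and 535 CPM in DOX replicates 1 to 4. Its level was the highest of the CCT genes in both groups, in CPM and per kb, and its groups lay 311 CPM apart. The mean was 911 ± 59.7 CPM in untreated and 520.3 ± 18.9 CPM in DOX libraries (SD, n = 4), with a log2FC of -0.81 (SE 0.05, edgeR adjusted p = 6.56e-08).

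CCT4, the delta subunit, gave 330.3, 316, 368 and 321 CPM in untreated replicates 1 to 4 and 189, 206, 195 and 199 CPM in DOX replicates 1 to 4, which are separate by 110 CPM at their nearest. Its log2FC was -0.76 (SE 0.06, edgeR adjusted p = 1.58e-07). CCT7, the eta subunit, gave 483, 546, 606 and 526 CPM in untreated replicates 1 to 4 and 336, 324, 350.5 and 346 CPM in DOX replicates 1 to 4. It had the widest spread of the 8 genes among untreated libraries, a coefficient of variation of 9.47%, and its log2FC was -0.67 (SE 0.06, edgeR adjusted p = 1.78e-06).

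The other CCT genes fell by 23.8% to 28.7%. TCP1 ranged from 243 to 263 CPM in untreated and from 172 to 185 CPM in DOX libraries (log2FC -0.49, SE 0.04). CCT6A, the zeta subunit and the CCT gene with the lowest level in CPM and per kb, ranged from 176 to 184 CPM in untreated and from 123 to 135 CPM in DOX libraries (log2FC -0.49, SE 0.04). These 2 genes, on chromosomes 6 and 7, had nearly the same log2FC.
CCT2, the beta subunit, ranged from 267 to 294 CPM in untreated and from 201 to 211 CPM in DOX libraries (log2FC -0.43, SE 0.04). CCT5, the epsilon subunit, ranged from 344 to 372 CPM in untreated and from 266 to 274 CPM in DOX libraries (log2FC -0.41, SE 0.04). CCT8, the theta subunit, ranged from 342 to 373 CPM in untreated and from 261 to 275 CPM in DOX libraries, the shallowest fall of the 8 with a log2FC of -0.39 (SE 0.04, edgeR adjusted p = 7.32e-06). The 95% intervals of the log2FC of CCT3 (-0.93 to -0.69) and CCT8 (-0.49 to -0.29) did not touch.

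Since each CCT ring holds every subunit once, the RNA levels of the 8 genes were also compared with each other, per kb of annotated exon. The 8 RNAs were far from equal: in untreated cells CCT3 held 27.5% ± 0.331 of their sum and CCT6A 5.57% ± 0.207 (SD, n = 4), and the highest level was 4.95 ± 0.229 times the lowest. With DOX this ratio was 3.97 ± 0.243, and the coefficient of variation over the 8 genes went from 60.4% ± 1.77 to 49.7% ± 1.94, with no overlap between the groups. The 8 RNAs together fell from 3202 ± 178 to 2108 ± 40.8 CPM, so they were lower and less unequal at once.

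The shares of 7 of the 8 genes did not overlap between the groups. As parts of a single sum the shares are not independent, since a lower share of some genes raises those of others. Of all genes tested, 71.7% had CPM values that did not overlap between the groups, in either direction. CCT3 went from 27.5% to 24.1% ± 0.522 and CCT4 from 14.3% ± 0.557 to 12.99% ± 0.394 of the sum. CCT8 went from between 12.6% and 13.1% to between 14.8% and 15.1%, the largest gain, and the shares of TCP1, CCT2, CCT5 and CCT6A were higher with DOX by 0.513 to 1.14 percentage points. The share of CCT7 overlapped, at 17.2% to 19.0% in untreated and 16.8% to 17.9% in DOX libraries. In order, untreated cells held CCT3, CCT7, CCT4, CCT8, CCT2, CCT5, TCP1 and CCT6A, and in DOX libraries CCT8 stood above CCT4. CCT2 stood above CCT5 within each of the 8 libraries, although across libraries their untreated ranges overlapped, at 7.65% to 7.91% and 7.16% to 7.65%. Scaled by the longest annotated transcript, the same 7 shares were separate in the same directions, but CCT8 already stood above CCT4 in untreated cells, at 176 against 132 CPM per kb. With this length the mean share of CCT2 was below that of CCT4 in untreated cells (9.13% against 9.54%) and above it with DOX (10.4% against 8.64%). CCT5 passed TCP1 in the same way (7.03% against 7.23% untreated, 8.10% against 7.88% with DOX). Which genes exchange places thus depends on the length used. These shares are a description without a test.

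**Figure D4:**
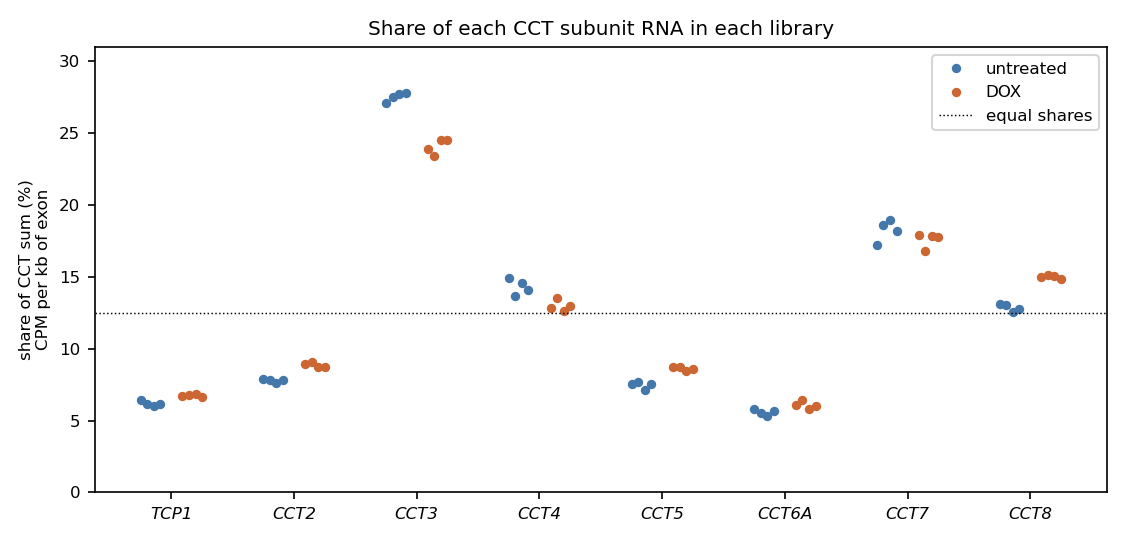
Share of each CCT gene in the sum of the 8 CCT genes, in percent of CPM per kb of annotated exon, in the 4 untreated (blue) and 4 DOX (orange) libraries, with a dotted line at equal shares. The DOX points of CCT3 and CCT4 lie below the untreated ones, those of CCT8, CCT2, CCT5, TCP1 and CCT6A lie above, and those of CCT7 overlap.

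The genes whose centred log2(CPM + 0.5) over the 8 libraries lay nearest to the mean profile of the CCT genes were SF3A3, a splicing factor subunit, MED4, a Mediator subunit, LETMD1, COP1, a ubiquitin ligase, and MKS1, a protein of the ciliary transition zone, at Euclidean distances of 0.04 to 0.07. The CCT genes did not form a tight group around their own mean: 52 genes lay nearer to it than TCP1, the nearest subunit, and 1798, the other subunits included, lay nearer than CCT3, the farthest. HSPD1 and HSPE1 lay at distances of 0.45 and 0.39.

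The chaperonin-like genes outside the complex had small log2FC values. Of 5 listed, 3 were tested, and BBS10 and BBS12, which assist assembly of the BBSome of cilia, were called lower, with log2FC values of -0.19 (SE 0.07) and -0.27 (SE 0.11). MKKS, which works with them, went from 30.5 ± 1.63 to 28.9 ± 0.745 CPM and was not called. The call of BBS10 was lost without DOX replicate 1, 3 or 4 (edgeR adjusted p = 0.0548, 0.116 and 0.129), that of BBS12 in 6 of the 8 fits that left out a library (untreated replicate 1 or 3 or any DOX replicate, adjusted p 0.0594 to 0.146), and both with library size alone (adjusted p = 0.449 and 0.232). The DESeq2 Wald test and a fit with no filter on low counts did not call BBS12 either (adjusted p = 0.0736 and 0.0704). CCT6B, the paralog of CCT6A known from testis, was too low to test at 1.03 ± 0.0566 CPM in untreated and 0.573 ± 0.113 CPM in DOX libraries, and CCT8L2 was near 0.

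Prefoldin, which hands chains to CCT, held calls in both directions: of its 6 subunits 1 was called lower (PFDN4), 1 higher (PFDN2) and 4 neither, with a median log2FC of -0.05. PFDN4 had a log2FC of -0.19 (SE 0.06) and PFDN2 one of 0.24 (SE 0.07). PFDN5, the highest in CPM, stood at 142.8 ± 18.02 in untreated and 130.4 ± 8.29 CPM in DOX libraries. The PFDN4 call was lost without DOX replicate 1 or 3 (edgeR adjusted p = 0.0819 and 0.058) and with library size alone (adjusted p = 0.286), that of PFDN2 without untreated replicate 1 or 4 (adjusted p = 0.0511 and 0.0503), and PFDN5 became called lower without untreated replicate 1 (adjusted p = 0.0379). The count of higher calls was 2 without untreated replicate 3, without DOX replicate 1, 2 or 3, with library size alone and with the stricter filter on low counts (above 1 CPM in at least 5 libraries).
Of the phosducin-like cofactors, 3 of 4 were tested, and PDCL and PDCL3 fell, with log2FC values of -0.33 (SE 0.06) and -0.59 (SE 0.08).

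The tubulin folding cofactors take tubulin over from CCT and join its alpha and beta chains. All 5 were called lower, with a median log2FC of -0.60, beside 38.1% of all genes tested called lower. With library size alone 4 of the 5 were called lower. TBCD, the highest in CPM, stood at 222, 229, 241 and 227 CPM in untreated replicates 1 to 4 and at 145, 124, 141 and 142 CPM in DOX replicates 1 to 4. The DOX libraries were all lower, with a log2FC of -0.73 (SE 0.06, edgeR adjusted p = 2.18e-07). TBCC and TBCE followed with log2FC values of -0.68 (SE 0.06) and -0.60 (SE 0.06).

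The known clients of CCT moved more widely than the chaperonin. Of 16 listed actins, tubulins, G protein beta subunits and WD40 proteins of the anaphase-promoting complex, 12 were called lower, 2 higher and 2 neither, with a median log2FC of -0.51. TUBA1B, an alpha tubulin, fell from 1714 ± 123 to 639.7 ± 59.1 CPM (log2FC -1.42, SE 0.07, edgeR adjusted p = 7.02e-09), and the beta tubulin TUBB4B from 333 ± 31.4 to 116 ± 12.1 CPM (log2FC -1.53, SE 0.09).
TUBA1C had the lowest log2FC of the list, -2.22 (SE 0.19), at levels of only 10.98 ± 1.47 and 2.33 ± 0.75 CPM. ACTG1, the gamma actin and the client with the highest CPM, fell from 5912 ± 415 to 4631 ± 235 CPM (log2FC -0.35, SE 0.06). The 2 clients called higher, which are named after their values were seen, were the neuronal beta tubulin TUBB3, at 1.86 ± 0.185 in untreated and 3.09 ± 0.12 CPM in DOX libraries, and TUBB2B, at 90.9 ± 4.77 and 127 ± 8.14 CPM. Tubulin genes are close in sequence, so the division of reads among them is uncertain.

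**Figure D5:**
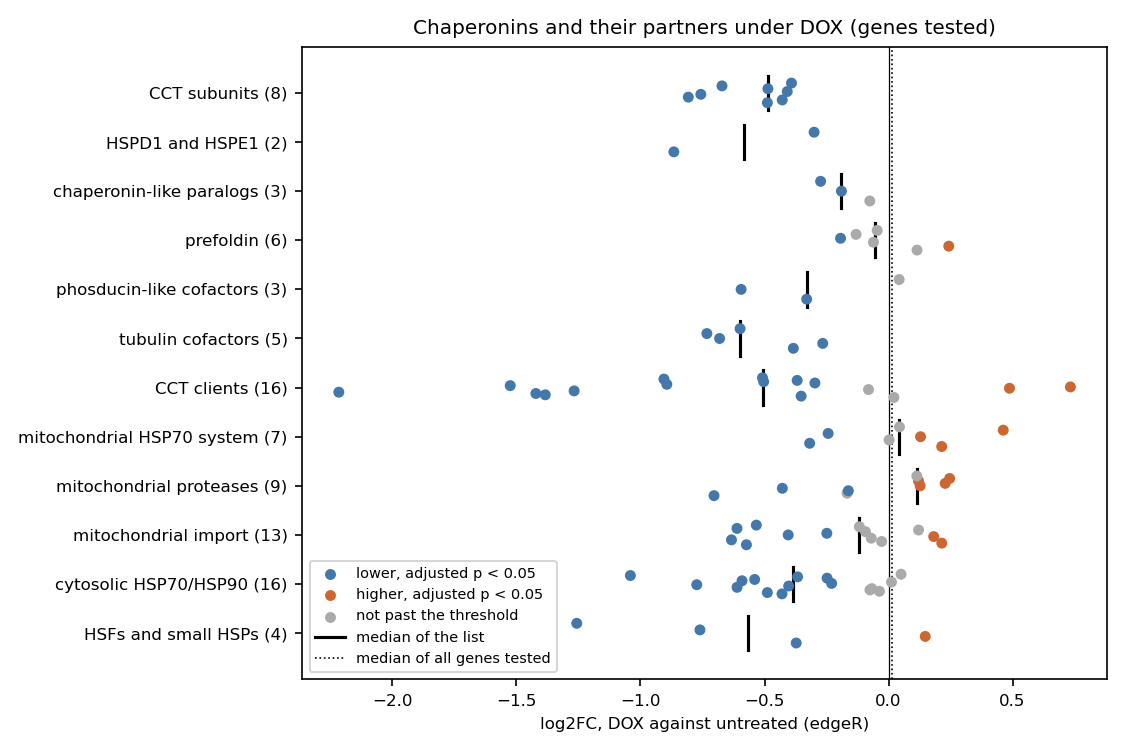
log2FC (DOX against untreated, edgeR) of each tested gene of the chaperonins and of 10 partner lists, with the number tested in brackets, colour for the call and a black bar for the median of each list. The tubulin cofactors lie wholly to the left of 0 as do the 10 chaperonin genes, the clients reach from -2.22 to 0.73, and the mitochondrial HSP70 system and proteases lie on both sides of the dotted median of all genes tested.

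In the mitochondrion, the HSP70 system upstream of HSP60 held calls in both directions. Of its 7 genes 2 were called lower and 3 higher, with a median log2FC of 0.04. HSPA9, which encodes mortalin, the matrix HSP70, stood at 660.2, 631, 649 and 649 CPM in untreated replicates 1 to 4 and at 718, 806, 718 and 761 CPM in DOX replicates 1 to 4. All DOX libraries were above all untreated ones, the reverse of HSPD1, with a log2FC of 0.21 (SE 0.05, edgeR adjusted p = 0.00151).
DNLZ, an escort protein of mortalin, rose by a log2FC of 0.46 (SE 0.09) and GRPEL1, its nucleotide exchange factor, fell by 0.32 on the log2 scale (SE 0.05). HSCB, the co-chaperone for iron-sulfur clusters, was called lower (log2FC -0.24, SE 0.09), a call lost without DOX replicate 1, 3 or 4 (edgeR adjusted p = 0.0729, 0.115 and 0.118) and with library size alone (adjusted p = 0.242).

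Of 9 mitochondrial proteases and disaggregases 3 were called lower and 4 higher, a count of higher calls that was 2 without untreated replicate 1, 2 or 4 and with no filter on low counts. LONP1, the matrix Lon protease, fell from 231 ± 14.7 to 142 ± 9.7 CPM (log2FC -0.70, SE 0.06), and CLPB, the disaggregase of the intermembrane space, had a log2FC of -0.43 (SE 0.05). OMA1, a protease of the inner membrane, rose by a log2FC of 0.25 (SE 0.06). YME1L1, the highest in CPM, went from 304 ± 1.12 to 332 ± 11.9 CPM, a call lost without untreated replicate 1, 2 or 4 (edgeR adjusted p 0.0686 to 0.0916) and with no filter on low counts (adjusted p = 0.151).

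Of 13 genes of mitochondrial import 6 were called lower and 2 higher, with a median log2FC of -0.12, and without untreated replicate 4 the higher calls numbered 1. The receptors TOMM20 and TOMM70 fell with log2FC values of -0.57 (SE 0.04) and -0.63 (SE 0.05), and TOMM20 stood at 797 ± 14.3 in untreated and 536 ± 20.8 CPM in DOX libraries. DNAJC19, of the import motor, had a log2FC of -0.61 (SE 0.06).

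The cytosolic HSP70 and HSP90 systems, which work beside CCT, were mostly lower: of 16 genes 11 were called lower and 5 were not called, with a median log2FC of -0.38, and with library size alone 2 were called higher. HSP90AB1, the constitutive HSP90, fell from 2852 ± 103 to 1669 ± 41.1 CPM (log2FC -0.77, SE 0.04, edgeR adjusted p = 1.12e-08), and PTGES3, its co-chaperone p23, from 449 ± 30.0 to 218 ± 9.16 CPM (log2FC -1.04, SE 0.06). HSPA14, an HSP70 of the ribosome, had a log2FC of -0.61 (SE 0.08).
Of 4 heat shock factors and small heat shock proteins, HSF1, the main heat shock factor, fell with a log2FC of -0.37 (SE 0.07), and the small heat shock proteins CRYAB and HSPB1 fell with log2FC values of -1.26 (SE 0.08) and -0.76 (SE 0.11). HSF2, named after its values were seen, was called higher (log2FC 0.15, SE 0.05), a call lost without any 1 of the 4 untreated replicates (edgeR adjusted p 0.0518 to 0.0833) and with no filter on low counts (adjusted p = 0.105). CAD and NCL, taken as genes known to respond to MYC, had log2FC values of -0.48 (SE 0.05) and -0.44 (SE 0.04), within the range of the CCT genes.

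Over all 10 partner lists, 82 of 85 genes were tested, 47 were called lower and 13 higher, with a median log2FC of -0.25. Against 38.1% of all genes tested called lower and 38.5% called higher, the lists held more lower and fewer higher calls, a description of lists that were chosen with earlier results of these data known. Among genes with a mean of at least 100 CPM, a level that part of the listed genes reach, 50.9% were called lower. The count of higher calls was 8 without untreated replicate 1 and 7 without untreated replicate 4.

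The chaperonin genes have many pseudogene copies, and reads that match both are divided between them. Of 58 copies and the read-through gene HSPE1-MOB4 (59 rows), 29 had no count in any library and 42 had at most 3 counts in every library. Only 6 were tested, so the copies took few reads: those of HSPD1 amounted to between 0.0688% and 1.40% of the counts of HSPD1 itself in a library.

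Of the copies of HSPD1, only HSPD1P6 was tested, and it went against its parent. Copies too low to test moved in both directions. HSPD1P1, 97.4% identical to HSPD1, went from 0.582 ± 0.0794 to 0.342 ± 0.0122 CPM, lower as its parent was. HSPD1P11 went from 0.120 ± 0.0863 to 0.713 ± 0.155 CPM, and the groups were separate in both copies. HSPD1P6, a transcribed pseudogene of HSPD1 on the minus strand of chromosome 3 (GRCh38, chr3:36767117-36784167), had 4.76, 9.07, 6.62 and 6.07 counts in untreated replicates 1 to 4 and 453, 377, 498 and 428 counts in DOX replicates 1 to 4. In CPM the change was from 0.138 ± 0.0296 to 9.37 ± 0.331 (SD, n = 4), with a log2FC of 6.05 (SE 0.13, edgeR adjusted p = 4.41e-12), while HSPD1 was lower. It passed the filter only through the DOX libraries, so it was tested only because that group was high, and its adjusted p is descriptive. Its longest transcript is 93.5% identical to HSPD1 over the aligned 1691 bp, and 1.96% of its windows of 100 bases are found unchanged in HSPD1, so few stretches of a read's length are common to both. Which part of the gene model the reads cover cannot be seen in counts per gene.

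CCT7P2, a processed copy of CCT7 on chromosome 5, had 93, 103, 86 and 74 counts in untreated replicates 1 to 4 and 17, 11, 12 and 9 counts in DOX replicates 1 to 4. Its log2FC of -2.79 (SE 0.17, edgeR adjusted p = 2.66e-08) was lower than the -0.67 of CCT7, from which it differs at many positions (84.5% identity). CCT7P2 passed the filter only through the untreated libraries, where it was high, so its adjusted p is descriptive. CCT8P1 went the other way from CCT8, from 0.853 ± 0.124 to 1.57 ± 0.0742 CPM (log2FC 0.88, SE 0.13, edgeR adjusted p = 7.78e-05). It passed only through the DOX libraries, where it was high, so its adjusted p is likewise descriptive. It lies inside FMO5 on the same strand, whose own level overlapped between the groups.
CCT6P1, CCT6P3 and HSPE1-MOB4 were not called. They stood at 2.44 ± 0.212, 3.99 ± 0.525 and 5.42 ± 0.918 CPM in untreated and at 2.66 ± 0.0977, 4.74 ± 0.425 and 5.79 ± 0.804 CPM in DOX libraries. CCT6P3 became called higher without untreated replicate 1 or DOX replicate 1 or 4 (edgeR adjusted p = 0.045, 0.0436 and 0.046), and with library size alone both CCT6P1 and CCT6P3 were called higher (adjusted p = 0.0359 and 0.0101).

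Several chaperonin genes share their start region with a gene on the opposite strand, and these neighbours moved in different ways. MRPL18, a protein of the mitochondrial ribosome that starts 63 bp from TCP1, stood at 33.1, 35.01, 37.9 and 35.7 CPM in untreated replicates 1 to 4 and at 24.8, 26.6, 25.1 and 26.5 CPM in DOX replicates 1 to 4. It fell with its neighbour, with a log2FC of -0.46 (SE 0.05, edgeR adjusted p = 7.71e-06) beside -0.49 for TCP1. PSPH, a phosphatase of serine synthesis that starts 26 bp from CCT6A, fell from 25.5 ± 1.04 to 16.9 ± 1.42 CPM, a log2FC of -0.60 (SE 0.06).

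PRADC1, which starts 182 bp from CCT7, did the opposite of CCT7. It gave 4.43, 5.36, 6.69 and 5.51 CPM in untreated replicates 1 to 4 and 13.8, 12.4, 15.5 and 16.1 CPM in DOX replicates 1 to 4. Every DOX library was above every untreated one, with a log2FC of 1.40 (SE 0.12, edgeR adjusted p = 6.80e-07), while CCT7 was lower by 0.67.
COMMD1 beside CCT4 stood at 10.6 ± 0.909 in untreated and 10.2 ± 0.675 CPM in DOX libraries, ATPSCKMT beside CCT5 at 7.01 ± 0.231 and 7.96 ± 0.805 CPM, and MOB4 at 36.5 ± 2.81 and 35.9 ± 1.97 CPM, none of them called. ATPSCKMT became called higher without DOX replicate 4 (edgeR adjusted p = 0.0105), with library size alone (adjusted p = 0.00551) and with the stricter filter on low counts (adjusted p = 0.0481). TSACC beside CCT3 was too low to test, at 1.05 ± 0.25 in untreated and 0.5 ± 0.0566 CPM in DOX libraries, and the microRNA gene MIR3913-1 beside CCT2 had no counts. Whether counting used the strand is not stated in the sources used here, so where genes on opposite strands overlap their reads may not be told apart.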

How the data were processed

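PolyA+ RNA of 4 untreated and 4 DOX-treated D283-OMO replicates was measured, 1 library per file, and samples were grouped by their titles. The authors removed adapters with Trim Galore, mapped the reads by STAR (GENCODE 32) and counted genes by RSEM. The deposited values are expected counts per gene, not normalized, in which reads matching several genes are divided. Versions, and whether counting used the strand, are not given in the sources used here.

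The expected counts, rounded, were fitted for genes above 1 CPM in 4 or more of the 8 libraries with edgeR 4.0.16 in R 4.3.3 (TMM, quasi-likelihood test, Benjamini-Hochberg over 15222 genes, no covariates). The SE of a log2FC comes from the F statistic of that test. Exact permutation tests were two-sided over every split of 4 against 4 libraries. Other steps used Python 3.11.15, numpy 2.4.6, pandas 2.3.3 and BLAST 2.17.0. Counts of 3 or fewer were taken as the floor. Floors cover counting error only, because reads are not independent molecules where no molecular identifiers were used.

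Gene models, lengths and distances between starts come from GENCODE 29 on GRCh38, and start windows from RefSeq on GRCh38.p14. The members and lists were chosen with earlier results of these data known. Named are the 10 members, from each list the 3 largest called changes and the most abundant gene, every tested copy and divergent neighbour within 1000 bp, and the 5 genes nearest to the CCT profile. The alternatives were DESeq2 1.42.0 size factors, library size only, the DESeq2 Wald test, edgeR's likelihood ratio test, 2 other filters on low counts, the longest transcript as length, the replicate number as a block, and fits that left out 1 replicate, for which the filter was applied again to 7 libraries. On simulated counts of 14953 genes, 198 of 200 genes with a planted log2FC of 0.7, up or down, were called, with 3 false calls. The simulation changed few genes and used a single dispersion, whereas 76.6% of genes were called in the data. It therefore checks the code and does not give the error rate of this comparison.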

Additional observations from a re-analysis of the deposited data

Results flagged for a closer look

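Within groups of 4 libraries, 3 of 62 sets of values held 1 library that stood apart by Dixon's test, and chance gives about 1 in 20, or 3.1 of 62. HSPD1 stood at 1504 CPM in untreated replicate 3, against 1410.4 to 1417 CPM in the other untreated libraries. The HSPD1 to HSPE1 count ratio was 9.83 in DOX replicate 2, against 8.86 to 8.95 in the other DOX libraries. The share of CCT7 in the CCT sum was 16.8% in DOX replicate 2, against 17.7% to 17.9% in the other DOX libraries. Each of the 3 values lay on the same side of the other group as the rest of its group, except the CCT7 share, where the groups overlap.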

How the results depend on the processing

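At an FDR limit of 0.01, added after seeing the data, 0 of the 10 members passed with an absolute log2FC above 2, as at 0.001. All 10 members were called lower in each of the 15 alternatives of the edgeR and DESeq2 fits, with a largest adjusted p of 0.017 (HSPE1, library size only), and between 4 and 6 of them were past a log2FC of -0.5. Their median log2FC ranged from -0.52 to -0.44 with 1 library left out and was -0.36 with library size only, where the median of all genes tested moved from 0.01 to 0.14 and the share of lower genes among those called from 49.7% to 39.7%. Library size only also gave 21 higher calls in the partner lists (13 in the reported fit) and 6 among copies and neighbours (3 in the reported fit). With 1 library left out these counts ranged from 7 to 15 and from 1 to 4; a gene that passes the filter through the 4 DOX libraries alone is not tested once 1 of these is left out. With no filter on low counts 15230 of 36881 genes were called.

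The replicate numbers were not taken to pair the samples: residuals of same-numbered libraries correlated at 0.157, 0.144 and 0.241 in 3 pairs but at -0.176 in the other (mean 0.0913, against -0.033 over pairs of other numbers). With the replicate number as a block 11805 genes were called (11661 without), all 10 members were called lower, with a median log2FC of -0.49, BBS12 was no longer called (log2FC -0.27, adjusted p = 0.051), and the paired log2 difference of the HSPD1 to HSPE1 ratio was -0.57, with an exact p of 0.125, the smallest that 4 pairs allow. With 1 library left out that difference ranged from -0.61 to -0.53, with the smallest exact p that 3 against 4 allow, 0.0286. The coefficient of variation over the CCT genes was 68.1% in untreated and 57.0% in DOX libraries with the longest transcript as length, and 59.7% to 61.1% and 49.2% to 50.6% with 1 library left out.

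Genes not called changed sign in 8 fits and were called in none of these. With library size only the log2FC was 0.051 for MKKS, 0.073 for COMMD1 and 0.10 for MOB4. With 1 library left out it ranged from -0.0045 to 0.20 for HSPE1-MOB4, from -0.13 to 0.0097 for COMMD1 and from -0.072 to 0.025 for MOB4. Of 820 fits of the other 56 named genes, 769 kept the direction and the call. The causes were not tested. At 3394 counts or more per library, sampling noise did not limit the members, whereas CCT6B, TSACC and most copies were too low to test.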
